A study of Mus musculus with 8 samples.

Results

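The 40 genes described here encode the actin cytoskeleton and the motility machinery of CD8 T cells that had entered a mouse tumour. They are the rows of the deposited count table whose symbol is in a list of actin monomers and their binders, filament regulators, myosins, membrane linkers and small GTPases with their exchange factors. All 40 were found among the 24976 genes of the table, and all 40 passed the filter on low counts that left 13073 genes to test. The list was not drawn from the measured values, although it was chosen with earlier results of these data known.

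Bulk RNA was sequenced from 8 libraries, in 4 groups of 2 set by the genotype of the donor and the population sorted. All recipients were Rag2-/- mice, which lack T and B cells of their own, bearing subcutaneous B16-OVA tumours, a melanoma line that expresses ovalbumin. CD8+ T cells were transferred 10 days after the tumour cells, and infiltrating CD3e+CD8+ cells were taken on day 10 after transfer. The sort took PD1+Tim3- and PD1+Tim3+ cells, and a sample came from 1 implanted mouse, per the labels' protocols. Donors were WT, or carried Cd8Cre, floxed alleles of Nr4a1 and Nr4a2 on both chromosomes, and OT-I Tg/+, a T cell receptor that recognises ovalbumin. Whether the WT donors carried OT-I is not given in the labels, so receptor and deletion cannot be told apart in a contrast of genotypes. Neither the Cre line nor the age and sex of the mice is described further. The study set deletion of the 2 nuclear receptors against the PD1+Tim3- and PD1+Tim3+ states of exhausted CD8 T cells.

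Actin is a protein that assembles from monomers into filaments, and a T cell crawls and forms its contact with a target cell by growing, branching, cutting and pulling on these filaments. Thymosins, profilin and cyclase-associated protein hold or deliver monomers, the Arp2/3 complex starts branches, capping proteins stop growth, cofilin and its partners take filaments apart, and myosins pull on them. Small GTPases switch these steps on under the control of exchange factors, while linkers tie filaments to the membrane and to integrins. Inherited defects of several of these genes, such as WAS, CORO1A and DOCK8 in humans, cause immune deficiency.

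Total counts ran from 1944999 to 13418762 per library. No pair of replicates was a repeat of 1 library, since their counts differed by 3.10 to 16.1 units of chi-square per gene. Levels are given as CPM, counts scaled to the TMM-adjusted library size, replicate 1 first. Nr4a1 stood at 976 and 822 CPM in WT PD1+Tim3- and at 1327 and 1484 CPM in the libraries labelled dKO PD1+Tim3-, and at 801 and 786 CPM against 1190 and 1171 CPM in the PD1+Tim3+ pair. The deleted gene was thus at a higher level in every library labelled dKO, with a log2 difference of 0.64 ± 0.13 (SE, adjusted p = 0.126) in PD1+Tim3- and 0.57 ± 0.13 (adjusted p = 0.0945) in PD1+Tim3+, and Nr4a2 differed by -0.06 in both. Counts per gene cannot show which exons were lost, so dKO stands for that label throughout and no direction is read as an effect of the deletion. Havcr2, which encodes Tim3, ranged from 2.27 to 3.61 CPM in PD1+Tim3- and from 41.7 to 58.0 CPM in PD1+Tim3+ libraries. Of 9 listed markers of CD8 T cells and the sort, 8 were in the table and summed to 3242 to 4269 CPM. Ribosomal RNA took 1.60% to 2.37% of counts in PD1+Tim3- libraries and 6.53% to 8.36% in PD1+Tim3+ libraries, which moves with the population contrasts below, and its part in them was not tested.

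In each population contrast the genes are compared between PD1+Tim3+ and PD1+Tim3-, which asks whether the motility machinery differs between the 2 sorted states of tumour-infiltrating cells. The 40 genes took 2.48% ± 0.233 (SD, n = 2) of all counts in WT PD1+Tim3- and 3.13% ± 0.123 in WT PD1+Tim3+. In the libraries labelled dKO they took 2.53% ± 0.0431 and 3.09% ± 0.161. The PD1+Tim3+ libraries held the larger share in both genotypes, without overlap. In bulk RNA, a change in which cells were sorted and a change in RNA per cell cannot be told apart.

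**Figure D1:**
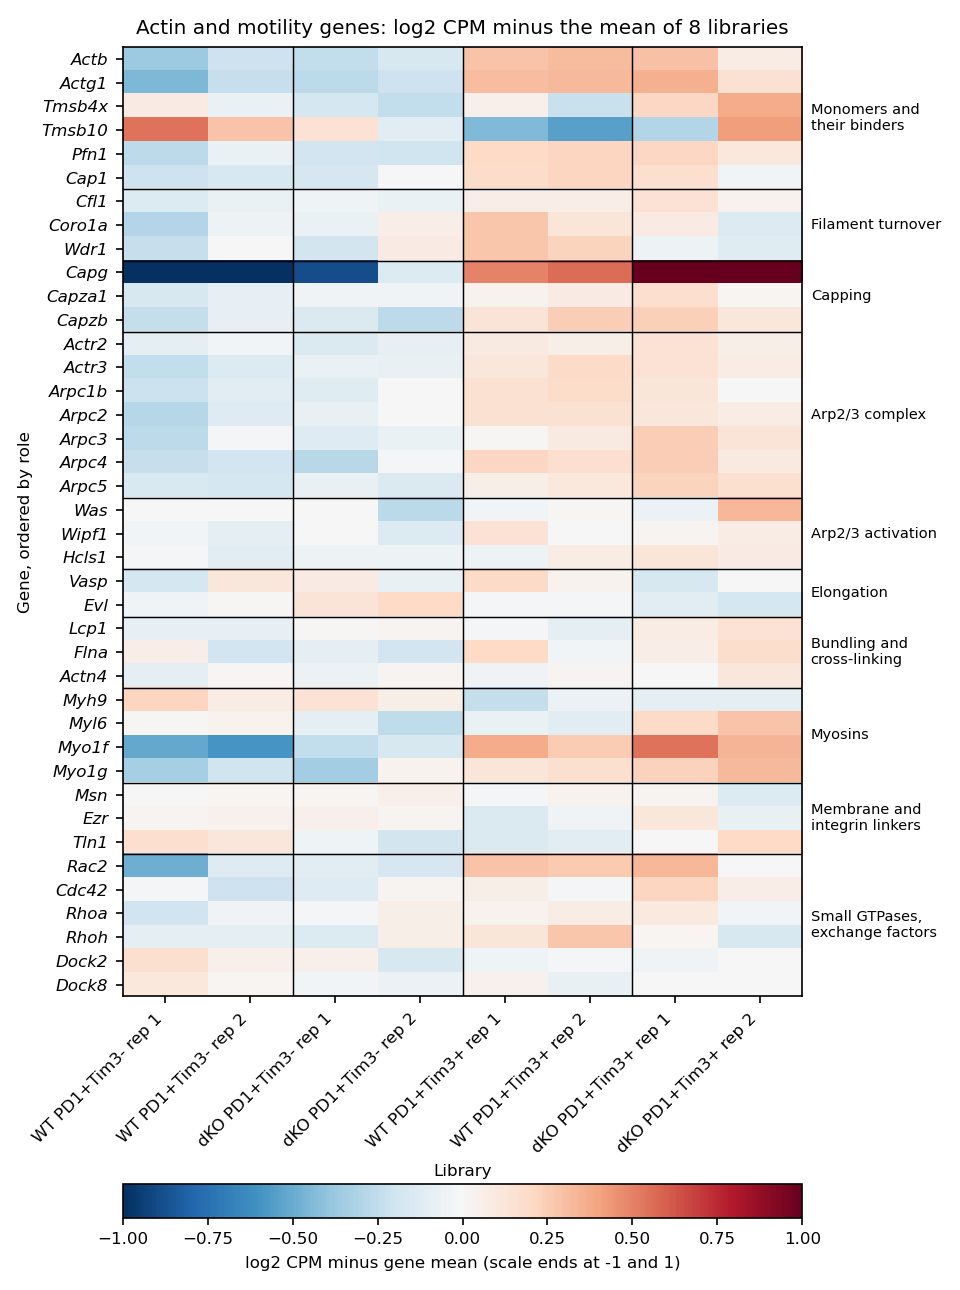
Log2 CPM of the 40 genes in each of the 8 libraries, minus the mean of the gene over the 8 libraries, with genes in rows by role and libraries in columns by group. The colour scale ends at -1 and 1, so Capg, with a 6.32-fold range over libraries, lies beyond it; the actin and Arp2/3 rows are mostly blue in PD1+Tim3- and red in PD1+Tim3+.

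A gene was called where edgeR's quasi-likelihood test gave a Benjamini-Hochberg adjusted p under 0.05 over all 13073 genes. In WT, 8 of the 40 genes were called, 7 higher and 1 lower in PD1+Tim3+, where 17.0% of all genes tested were called, 8.25% higher and 8.76% lower. At an unadjusted p under 0.05 there were 20, beside 31.6% of all genes. In 24 of the 40 genes both PD1+Tim3+ libraries lay above both PD1+Tim3- libraries, beside 32.7% of all genes, and in 6 both lay below, beside 30.3%. The 8 of 40 called are close to the share of all genes by this test, and other tools gave another proportion. With limma-voom 16 of the 40 were called, beside 2373 of 13073 genes, and with robust estimation 14, beside 1920, whereas DESeq2 called 6, beside 1314. Of the 30 genes whose groups did not overlap, 24 were higher. The median log2 fold change of the 40 was 0.17, with 30 of 40 above 0, beside 0.01 over all genes.

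In the libraries labelled dKO, 4 genes were called, all higher in PD1+Tim3+, beside 9.93% of all genes, 5.21% higher and 4.72% lower. At an unadjusted p under 0.05 there were 13, beside 23.7% of all genes. Both PD1+Tim3+ libraries lay above both PD1+Tim3- libraries in 25 genes, beside 26.2% of all genes, and below in 2, beside 24.7%. The median was 0.15, with 32 of 40 above 0, beside 0.01 over all genes. The 2 population contrasts share no library, but both use the spread estimated over all 8 libraries in 1 fit. Of the 40, 25 genes had a positive fold change in both and 3 a negative one in both. A further 5 were higher in WT and lower in dKO, and 7 the reverse. Joint counts over all genes, of signs or of calls, are not given here, so the background of this agreement is unknown. Capg, Myo1f and Actg1 were called in both, Actb, Tmsb10, Rac2, Myo1g and Cap1 in WT alone, and Tmsb4x in dKO alone, but the difference between the contrasts passed the test for none of the 40.

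**Figure D2:**
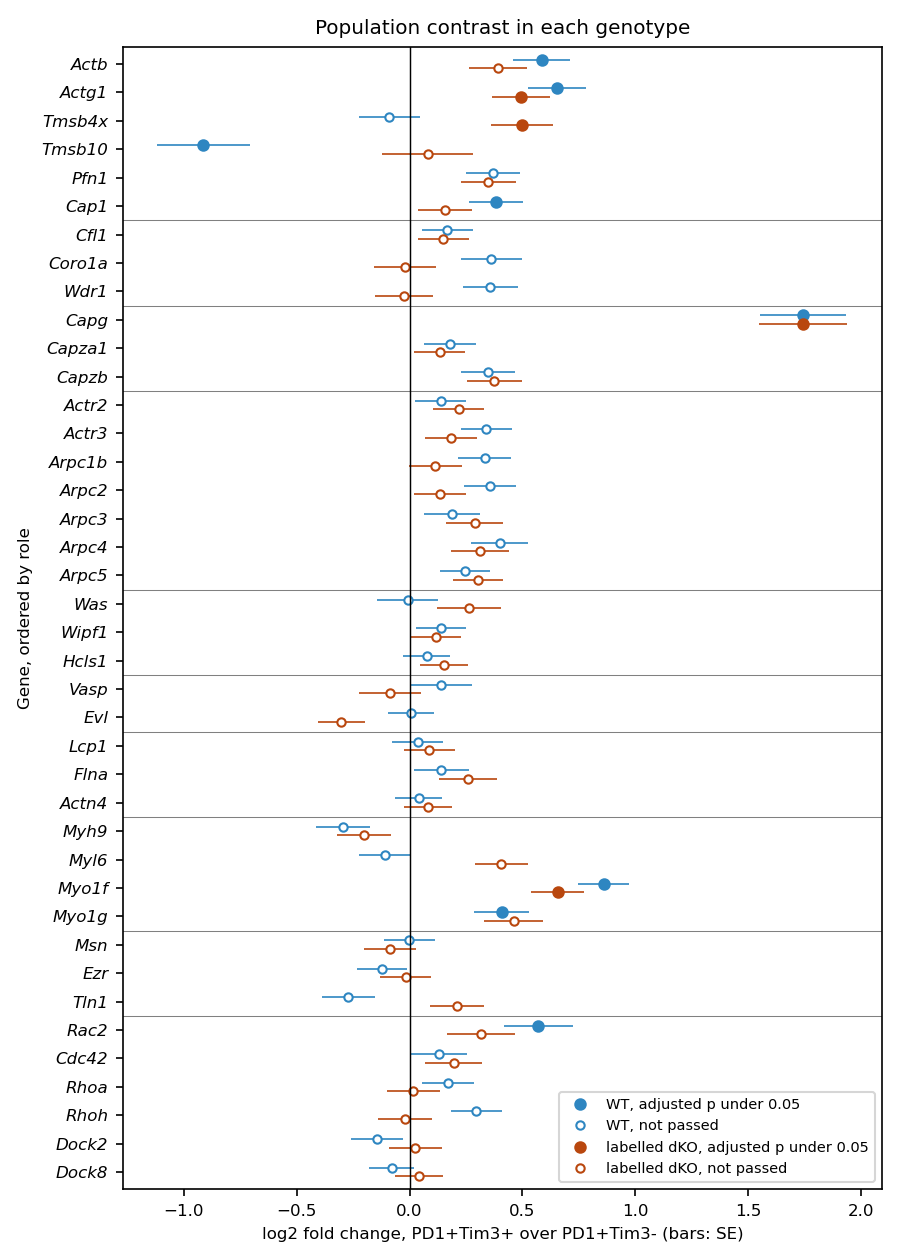
Log2 fold change of PD1+Tim3+ over PD1+Tim3- for the 40 genes by role, in WT (blue) and in the libraries labelled dKO (orange), with bars for the standard error and filled points for an adjusted p under 0.05. Most points lie right of 0, Capg stands farthest right at 1.74 in both genotypes, and Tmsb10 lies at -0.91 in WT and 0.08 in dKO.

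Actb and Actg1, the cytoplasmic actins, were higher in WT PD1+Tim3+ cells. Actb stood at 2919 and 3254 CPM in WT PD1+Tim3- and at 4570 and 4686 CPM in WT PD1+Tim3+, a log2 fold change of 0.58 ± 0.13 (SE, adjusted p = 0.0105). Actg1 stood at 1555 and 1806 CPM against 2628 and 2652 CPM, a log2 fold change of 0.65 ± 0.13 (adjusted p = 0.0071). Both WT PD1+Tim3+ libraries exceeded both PD1+Tim3- libraries for either gene by far more than replicates differed. In the libraries labelled dKO, Actg1 went from 1768 and 1832 CPM to 2707 and 2356 CPM, a log2 fold change of 0.49 ± 0.13 (adjusted p = 0.037). Actb went from 3171 and 3363 CPM to 4605 and 3964 CPM there, also without overlap, and 0.39 ± 0.13 did not pass (adjusted p = 0.0817). Together the 2 actins took 0.457% ± 0.0754 of counts in WT PD1+Tim3-, 0.503% ± 0.0103 in dKO PD1+Tim3-, 0.771% ± 0.00382 in WT PD1+Tim3+ and 0.681% ± 0.0976 in dKO PD1+Tim3+ (SD, n = 2). The count of Actb over that of Actg1 stayed between 1.68 and 1.88 in the 8 libraries, so their proportion changed little while their share grew. It was 1.79 to 1.88 in the PD1+Tim3- libraries and 1.68 to 1.77 in the PD1+Tim3+ libraries, without overlap, and was not tested.

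Actin genes are textbook targets of serum response factor, which binds a CArG box, a pair of C, 6 bases of A or T and a pair of G, a pattern that reads the same on both strands. Of the 40 genes, 38 have a promoter in the RefSeq table of build GRCm38.p6, and Actb and Rac2 are not among them. In the window of 250 bases before to 50 bases after the start site, 3 of the 38 held the pattern, Actg1, Myl6 and Arpc4, beside 1.52% of 9723 tested genes with a promoter. In Actg1, on the minus strand, the pattern starts 90 bases upstream of the start site. The stretch before Actg1 is shown because it holds the pattern and Actg1 was called in both genotypes, with the pattern in capitals, over the 203 bases of the window that lie outside the gene in the GENCODE annotation, chr11:120348543-120348745.
Actg1: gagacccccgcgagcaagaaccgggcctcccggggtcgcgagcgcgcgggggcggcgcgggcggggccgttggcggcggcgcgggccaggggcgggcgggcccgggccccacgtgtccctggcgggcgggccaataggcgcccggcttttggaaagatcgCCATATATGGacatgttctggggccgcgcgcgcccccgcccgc
The Arpc4 pattern, CCTAATTTGG, sits at the far end of its window, 250 bases upstream. The Myl6 pattern, CCTTATATGG, lies before 1 of the RefSeq start sites of Myl6 that is inside the gene as GENCODE annotates it, and not before the outermost start. In WT, Actg1 was called, Arpc4 just missed the threshold (0.40 ± 0.13, adjusted p = 0.0513) and Myl6 had a log2 fold change of -0.11 ± 0.12. A match is a description of the letters and not a site shown to be bound.

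Thymosins, the small proteins that hold actin monomers in reserve, are encoded by Tmsb10 and Tmsb4x. Tmsb10 stood at 1933 and 1620 CPM in WT PD1+Tim3- and at 977 and 910 CPM in WT PD1+Tim3+, a log2 fold change of -0.91 ± 0.20 (adjusted p = 0.0114). It was the only one of the 40 genes called lower. In the libraries labelled dKO it stood at 1469 and 1227 CPM against 1082 and 1769 CPM, so that the groups overlapped and the log2 fold change was 0.08 ± 0.20 (adjusted p = 0.867). The 2 dKO PD1+Tim3+ libraries differed by 0.71 on the log2 scale for Tmsb10, more than for any other of the 40 genes. Tmsb4x, by far the more abundant thymosin, stood at 5512 and 4968 CPM against 5379 and 4467 CPM in WT, a difference of -0.09 ± 0.14. In dKO it stood at 4604 and 4397 CPM against 5992 and 6718 CPM, a log2 fold change of 0.50 ± 0.14 (adjusted p = 0.0425). That call was lost when a correction for transcript length was added (0.28 ± 0.12, adjusted p = 0.197), and Tmsb10 in WT then had -0.66 ± 0.17 (adjusted p = 0.026).

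A ratio of 2 genes within a library needs no scaling between libraries. Tmsb4x had 2.85 and 3.07 counts for each count of Tmsb10 in WT PD1+Tim3-, and 5.51 and 4.91 in WT PD1+Tim3+. In the libraries labelled dKO the ratio was 3.13 and 3.58 in PD1+Tim3- and 5.54 and 3.80 in PD1+Tim3+. The 4 PD1+Tim3+ libraries all lay above the 4 PD1+Tim3- libraries. The transcripts are of similar length, 768 bases for Tmsb4x and 690 bases for Tmsb10. This ratio was chosen after the values had been seen and was not tested.

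Profilin, encoded by Pfn1, delivers monomers to growing ends, and Cap1 helps recycle them from cofilin. Pfn1 stood at 1584 and 1815 CPM against 2179 and 2210 CPM in WT, where 0.37 ± 0.12 did not pass (adjusted p = 0.0597). With the correction for transcript length it passed (adjusted p = 0.0156). Cap1 rose in WT from 288 and 297 CPM to 377 and 387 CPM (0.38 ± 0.12, adjusted p = 0.0492), and in dKO the change was 0.16 ± 0.12.

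**Figure D3:**
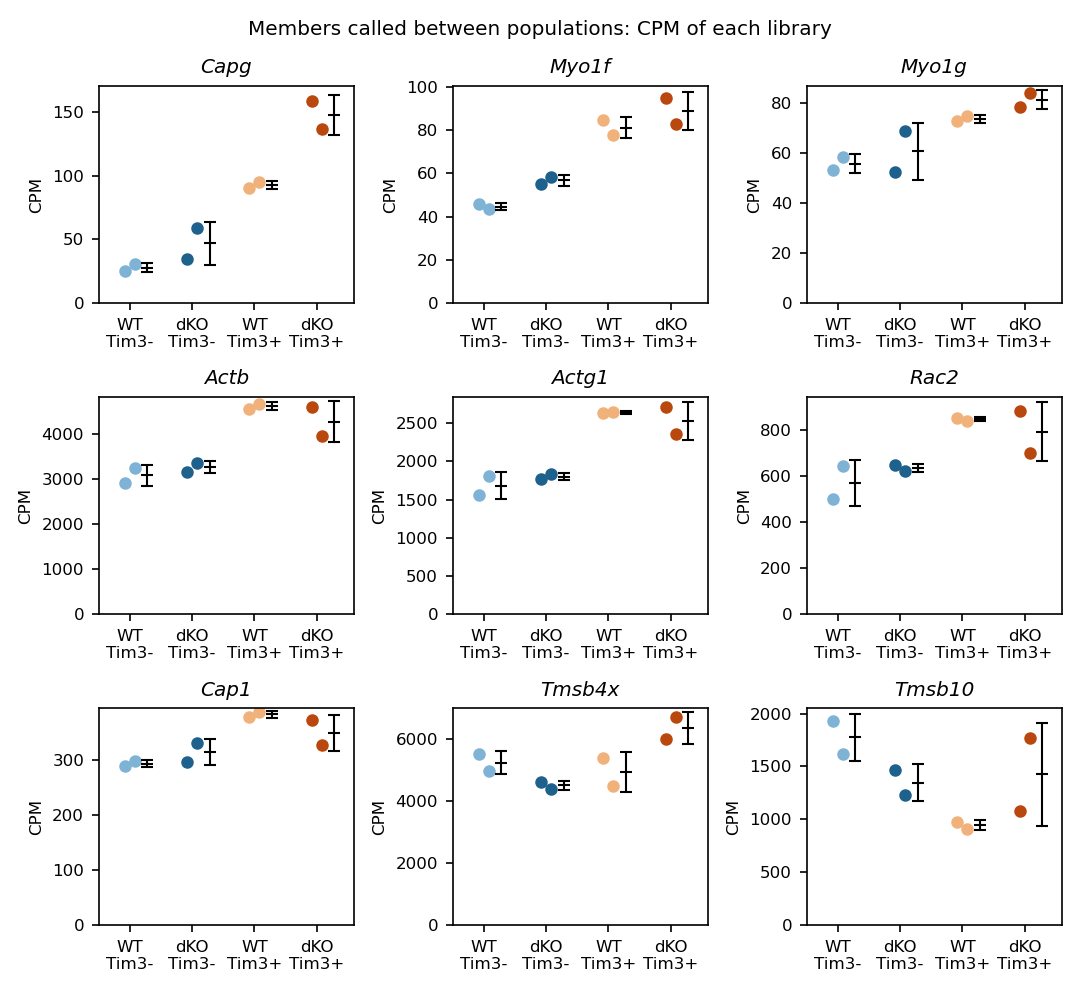
CPM of each library, on axes that start at 0, for the 9 genes called in either population contrast, with points for the 2 libraries of a group and a bar for the mean and SD. Capg and Myo1f separate the populations in both genotypes, Tmsb4x is highest in the 2 libraries labelled dKO PD1+Tim3+, and those 2 libraries lie far apart for Tmsb10.

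Of the genes that turn filaments over, none was called. Cfl1, which encodes the severing protein cofilin, had 0.17 ± 0.11 in WT and 0.15 ± 0.11 in dKO. Coro1a and Wdr1, whose products help cofilin, had 0.36 ± 0.14 and 0.36 ± 0.12 in WT and -0.02 ± 0.14 and -0.02 ± 0.13 in dKO. For both, the 2 WT PD1+Tim3+ libraries were the highest of the 8: Coro1a at 1240 and 1113 CPM and Wdr1 at 139 and 134 CPM, where the other libraries reached 1086 and 121 CPM.

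Among capping genes, Capg changed most of all 40. Capg encodes a gelsolin-family protein that caps filament ends without cutting them. It stood at 25.1 and 30.6 CPM in WT PD1+Tim3-, 34.8 and 58.6 CPM in dKO PD1+Tim3-, 90.5 and 94.6 CPM in WT PD1+Tim3+ and 159 and 137 CPM in dKO PD1+Tim3+. Every PD1+Tim3+ library lay above every PD1+Tim3- library, by a log2 fold change of 1.74 ± 0.19 in WT (adjusted p = 0.00047) and 1.74 ± 0.20 in dKO (adjusted p = 0.000461), 3.35-fold in each. The call held under each of 18 alternative settings in both contrasts. Capg is also abundant in macrophages, whose listed markers (6 of 7 in the table) summed to 11.3 to 13.6 CPM in WT PD1+Tim3-, 8.37 to 14.6 in dKO PD1+Tim3-, 13.6 to 13.9 in WT PD1+Tim3+ and 12.0 to 12.4 in dKO PD1+Tim3+. Most of each sum was Cd68, at 5.76 to 10.8 CPM over the 8 libraries, and Apoe stood at 1.67 to 2.84 CPM. Lyz2 was at most 0.712 CPM and C1qa at most 0.339 CPM. Dendritic cell markers summed to 25.4 to 33.5 CPM in PD1+Tim3- and 48.4 to 55.1 CPM in PD1+Tim3+ libraries, most of it Itgax, while Clec9a was at most 0.678 CPM. Capza1 and Capzb encode the heterodimeric capping protein. Capzb had 0.35 ± 0.12 in WT and 0.37 ± 0.12 in dKO, and Capza1 had 0.18 ± 0.11 and 0.13 ± 0.11, with none called.

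The Arp2/3 complex was measured by 7 genes, Actr2, Actr3, Arpc1b, Arpc2, Arpc3, Arpc4 and Arpc5, which encode the 2 actin-related proteins and the 5 smaller subunits. Every one had a positive fold change in both genotypes, from 0.14 to 0.40 with a median of 0.33 in WT, and from 0.11 to 0.31 with a median of 0.22 in dKO. Of all genes tested, 51.15% had a positive fold change in WT and 50.98% in dKO. None was called in either. At an unadjusted p under 0.05 there were 5 of 7 in WT, beside 31.6% of all genes, and 3 of 7 in dKO, beside 23.7%. Arpc2, as an example, stood at 514 and 572 CPM in WT PD1+Tim3- and 696 and 696 CPM in WT PD1+Tim3+ (0.36 ± 0.12, adjusted p = 0.0559), and at 593 and 623 CPM against 677 and 659 CPM in dKO (0.14 ± 0.12). The subunits work in 1 complex, and the 7 genes are not independent measures.

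No activator of the complex was called. Was, which encodes the Wiskott-Aldrich protein, had -0.01 ± 0.14 in WT and 0.26 ± 0.14 in dKO. Wipf1, its stabilising partner, had 0.14 ± 0.11 and 0.12 ± 0.11, and Hcls1, the cortactin relative of blood cells, had 0.08 ± 0.10 and 0.15 ± 0.11. Vasp and Evl, which lengthen unbranched filaments, had 0.14 ± 0.14 and 0.01 ± 0.10 in WT and -0.08 ± 0.14 and -0.30 ± 0.10 in dKO. Evl was the lowest of the 40 in dKO, at 201 and 210 CPM in PD1+Tim3- against 171 and 163 CPM in PD1+Tim3+, and did not pass (adjusted p = 0.099).

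Among cross-linkers and the linkers to membrane and integrin no gene was called. Lcp1 (plastin), Flna (filamin) and Actn4 (an actinin) had fold changes of 0.04 to 0.14 in WT and 0.08 to 0.26 in dKO. Msn and Ezr encode moesin and ezrin, which tie filaments to the membrane, and Tln1 encodes talin, which ties them to integrins. Msn stayed between 428 and 487 CPM in the 8 libraries, and Ezr had -0.12 ± 0.11 in WT and -0.02 ± 0.11 in dKO. Tln1 had opposite signs, -0.27 ± 0.12 in WT and 0.21 ± 0.12 in dKO, neither called. Of the 40 genes, the narrowest ranges over the 8 libraries were those of Dock8 (1.13-fold) and Msn (1.14-fold).

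The class I myosins, single-headed motors that link filaments to membrane, were Myo1f, called in both genotypes, and Myo1g, called in WT. Myo1f stood at 45.8 and 43.4 CPM in WT PD1+Tim3-, 55.0 and 58.6 CPM in dKO PD1+Tim3-, 84.6 and 77.9 CPM in WT PD1+Tim3+ and 95.2 and 82.7 CPM in dKO PD1+Tim3+. All 4 PD1+Tim3+ libraries exceeded all 4 PD1+Tim3- libraries, with 0.86 ± 0.11 in WT (adjusted p = 0.00133) and 0.66 ± 0.12 in dKO (adjusted p = 0.00824). Myo1g stood at 53.2 and 58.3 CPM against 72.6 and 74.8 CPM in WT (0.41 ± 0.12, adjusted p = 0.0445). In dKO it stood at 52.5 and 68.5 CPM against 78.5 and 83.8 CPM (0.46 ± 0.13), which just missed (adjusted p = 0.0507). Of the class II motor, Myh9, the heavy chain, had -0.29 ± 0.12 in WT and -0.20 ± 0.12 in dKO, and Myl6, a light chain, had -0.11 ± 0.12 and 0.41 ± 0.12 (adjusted p = 0.0512), none called.

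Of the small GTPases and their exchange factors, Rac2 was called, in WT only. Rac2, the Rac protein of blood cells, stood at 499 and 641 CPM in WT PD1+Tim3- and 852 and 840 CPM in WT PD1+Tim3+ (0.57 ± 0.15, adjusted p = 0.0253), and at 648 and 622 CPM against 882 and 700 CPM in dKO (0.32 ± 0.15, adjusted p = 0.237). The groups did not overlap in either genotype, although replicates of Rac2 differed more than those of any other of the 40 genes in WT PD1+Tim3-. Rhoh, a GTPase of blood cells that lacks enzymatic activity, had 0.29 ± 0.11 in WT and -0.02 ± 0.12 in dKO. Cdc42, Rhoa and the exchange factors Dock2 and Dock8 lay between -0.14 and 0.20 in both genotypes.

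The number of calls rests on few libraries. In WT it fell to 2, Capg and Myo1f, without replicate 1 of WT PD1+Tim3-, or without either replicate of WT PD1+Tim3+, and rose to 13 and 15 without replicate 1 and 2 of dKO PD1+Tim3+. In dKO it fell to 1, Capg, without replicate 1 of dKO PD1+Tim3-, to 2 without replicate 2 of that group or either replicate of WT PD1+Tim3+. Leaving out a library lowers the residual degrees of freedom from 4 to 3 and changes the spread shared by all groups. Over all genes, calls in WT went from 2223 to 543, 426 and 563 under the first 3 omissions and to 2762 and 2754 under the last 2, and calls in dKO from 1298 to 119 without replicate 1 of dKO PD1+Tim3-, so that the count of the 40 went down and up with that of all genes. The median over the 40 genes moved less, from 0.15 to 0.23 in WT and from 0.14 to 0.19 in dKO over the same 8 omissions.

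Between genotypes the question is whether the libraries labelled dKO differ from WT within a population. No gene of the 40 was called in PD1+Tim3-, beside 0.0459% of all genes, and 2 had an unadjusted p under 0.05, beside 8.28%. DESeq2 and limma-voom called none either. In 10 of the 40 both dKO libraries lay above both WT libraries, beside 20.3% of all genes, and in 6 below, beside 21.0%. The median difference was 0.04 beside -0.01 over all genes. The 4 smallest p-values belonged to Capg (0.67 ± 0.21, adjusted p = 0.481), Myo1f (0.34 ± 0.12, adjusted p = 0.537), Tln1 (-0.25 ± 0.12, adjusted p = 0.626) and Tmsb10 (-0.40 ± 0.20, adjusted p = 0.65), and none passed.

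In PD1+Tim3+, 0 of the 40 were called, beside 0.627% of all genes, and 6 had an unadjusted p under 0.05, beside 12.0%. DESeq2 and limma-voom also called 0. In 11 of the 40 the libraries labelled dKO lay above, beside 20.6% of all genes, and in 8 below, beside 20.7%, which is close to the background in both directions. The median was 0.02 beside 0.00. Capg again had the smallest p, at 0.67 ± 0.17 (adjusted p = 0.139), followed by Tmsb10 (0.60 ± 0.20, adjusted p = 0.256), Myl6 (0.32 ± 0.12, adjusted p = 0.286) and Wdr1 (-0.33 ± 0.12, adjusted p = 0.293). Both libraries labelled dKO exceeded both WT libraries for Capg in either population. The genotype and population contrasts of a group share its libraries, so a high or low library enters both.

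Whether the population contrast differs between genotypes was tested by the interaction. It was called for 0 of the 40 genes and for 0.00% of all genes, and 4 of the 40 had an unadjusted p under 0.05, beside 10.1% of all genes. DESeq2 and limma-voom called none. Those 4 were Tmsb10 (0.99 ± 0.29, adjusted p = 0.277), Myl6 (0.51 ± 0.16, adjusted p = 0.329), Tmsb4x (0.59 ± 0.19, adjusted p = 0.336) and Tln1 (0.48 ± 0.17, adjusted p = 0.36), all positive. For Capg, whose fold change was 1.74 in both genotypes, the interaction was 0.00 ± 0.27, with an error that leaves room for a difference in either direction. Without replicate 1 of dKO PD1+Tim3+, the interaction of Tmsb10 was 1.30 (adjusted p = 0.00362) and its difference between genotypes in PD1+Tim3+ was 0.91 (adjusted p = 0.00721), and 309 of all genes then passed in the interaction. Without replicate 2 of that group, the values for Tmsb10 were 0.60 (adjusted p = 0.475) and 0.20 (adjusted p = 0.72). The Tmsb10 result thus depends on which of these 2 libraries is kept.

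Transcript length moved with these values. Of the 13073 genes tested, 88.4% have a transcript length, and 5 of the 40 have a transcript under 1000 bases: Tmsb10 (690), Myl6 (692), Tmsb4x (768), Pfn1 (861) and Arpc3 (899). Over all 791 tested genes of that class, the median difference between genotypes was -0.14 in PD1+Tim3- and 0.24 in PD1+Tim3+, and the median interaction was 0.33. The 5 short genes had medians of -0.19, 0.32 and 0.51, although Pfn1 had -0.03, -0.05 and -0.02 in these contrasts and Arpc3 had 0.04, 0.14 and 0.10. Shares of transcripts under 1000 bases were taken over the counts of all genes with a transcript length. They were 18.3% ± 0.283 (SD, n = 2) in WT PD1+Tim3- and 16.4% ± 1.14 in dKO PD1+Tim3-. In PD1+Tim3+ they were 15.1% ± 0.0424 in WT and 17.6% ± 1.51 in dKO. Thus short transcripts as a class shifted the way Tmsb10, Tmsb4x and Myl6 did.

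**Figure D4:**
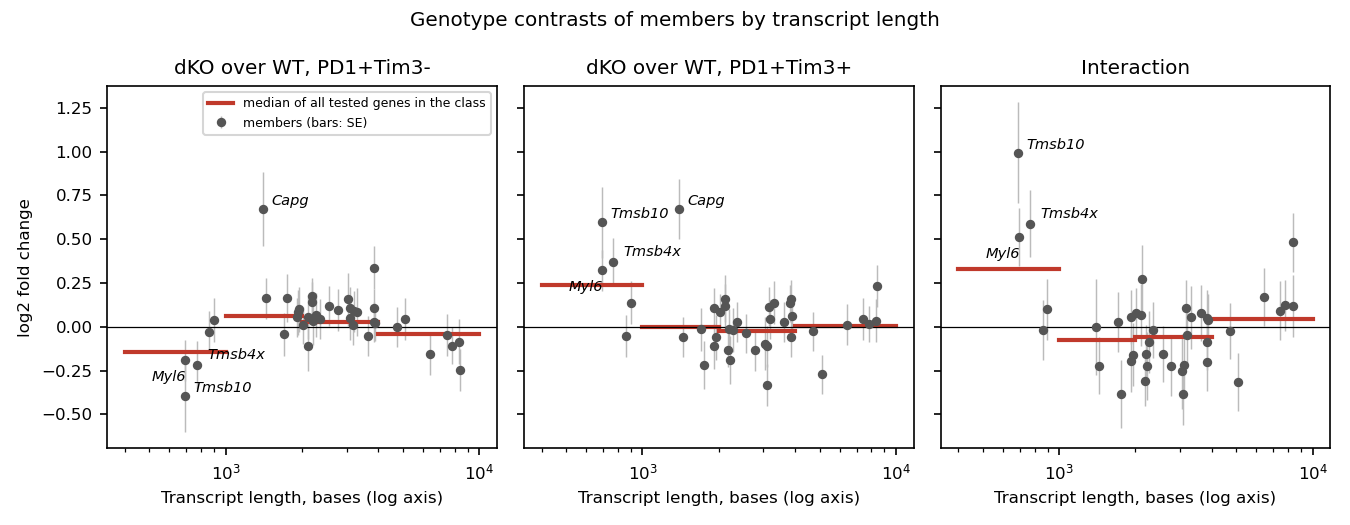
Log2 fold change against transcript length (log axis) for the 40 genes, with bars for the standard error, in the genotype contrast of each population and in the interaction, and red lines for the median of all tested genes in 4 classes of length with bounds at 1000, 2000 and 4000 bases. Tmsb10, Tmsb4x and Myl6 lie on the side of 0 to which the line of the shortest class is shifted, -0.14, 0.24 and 0.33 from left to right, whereas Capg does not belong to that class.

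When each library was corrected for its trend with transcript length, the medians of the 5 short genes came to 0.00, 0.02 and 0.03 in the same 3 contrasts. The correction takes that trend out, which brings the median of a length class near 0 by construction. All 791 tested genes of the class came to -0.01, -0.01 and -0.02. The interaction of Tmsb10 came to 0.49 ± 0.24 (adjusted p = 0.579), that of Tmsb4x to 0.18 ± 0.17 and that of Myl6 to 0.03 ± 0.14. Those of Pfn1 and Arpc3 moved away from 0, to -0.31 ± 0.15 (adjusted p = 0.579) and -0.15 ± 0.16. That of Tln1, with a transcript of 8393 bases, kept 0.42 ± 0.15 (adjusted p = 0.471). Capg, of 1400 bases, kept its size, with 1.60 ± 0.18 in WT and 1.65 ± 0.18 in dKO for the population contrast, and 0.61 ± 0.20 and 0.66 ± 0.16 for the genotype contrasts. Over the 40 genes the median of the population contrast was 0.14 in WT and 0.15 in dKO after the correction, beside -0.01 and 0.00 over all genes. Calls then numbered 7 in WT, beside 2003 of 13073 genes, with Pfn1 gained and Myo1g and Cap1 lost. In dKO they numbered 5, beside 1199 of 13073 genes, with Actb and Myo1g gained and Tmsb4x lost. Why length and library go together was not tested.

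Levels of different genes are compared as CPM per kilobase of the longest transcript, averaged over the 8 libraries. Tmsb4x led at 6842, the highest percentile of all tested genes with a length, followed by Pfn1 at 2229, Tmsb10 at 1991, Actb at 1988 and Actg1 at 1108. The order of Pfn1, Tmsb10 and Actb differed between groups. In WT PD1+Tim3- they stood at 1974, 2574 and 1608, and in WT PD1+Tim3+ at 2549, 1367 and 2411. The light chain Myl6 came next at 851, and then Coro1a at 591, Cfl1 at 479 and Arpc2 at 437. At the other end were Myo1g at 20.5, Rhoh at 20.1, Myo1f at 17.7, Dock8 at 15.9 and Flna at 10.7. Within the Arp2/3 complex, Arpc2 stood at 437, Arpc3 at 342, Actr3 at 276, Arpc5 at 200, Arpc4 at 173, Actr2 at 162 and Arpc1b at 147. The heavy chain Myh9 stood at 68.2, far below Myl6. Capg averaged 56.2, from 19.9 in WT PD1+Tim3- to 105.5 in dKO PD1+Tim3+. These levels assume that reads spread over the whole transcript, which was not tested.

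**Figure D5:**
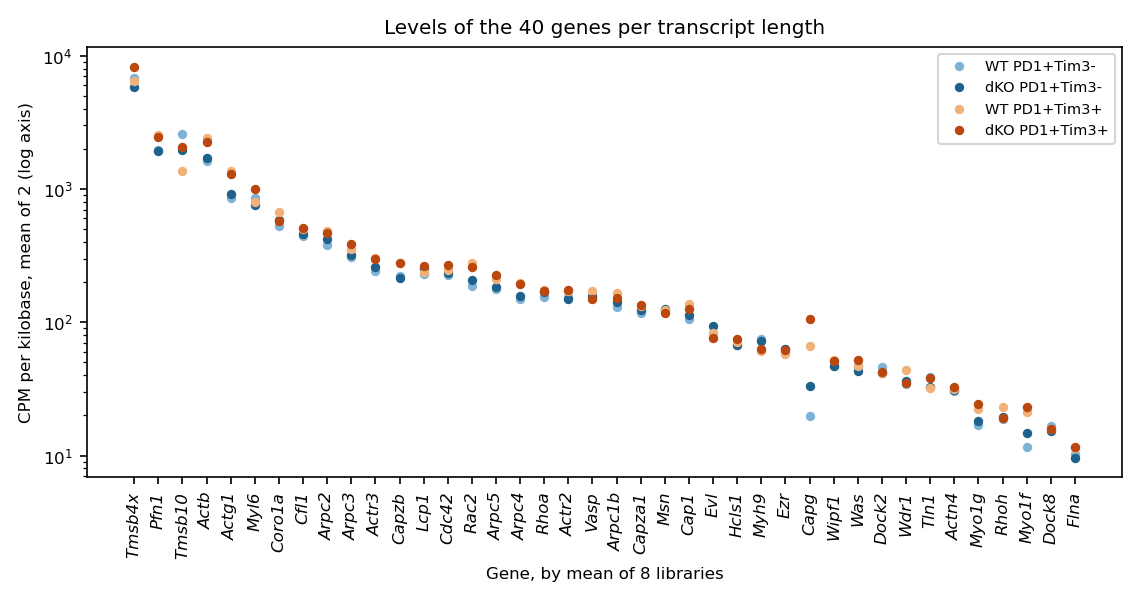
CPM per kilobase of transcript (log axis), as the mean of the 2 libraries of each group, for the 40 genes ordered by their mean over 8 libraries. Levels run from 6842 for Tmsb4x to 10.7 for Flna, and the 4 groups lie close together for most genes but far apart for Capg.

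Some of the 40 share sequence with other loci, and how reads that match several places were counted is unknown here. Capza1, Actg1, Actr3, Myl6 and Tmsb10 share 73.8%, 56.7%, 49.8%, 46.5% and 43.5% of the 50-base stretches of their transcript with other annotated genes, and their levels are therefore uncertain. The largest part is shared with a pseudogene for Capza1, Actg1, Actr3 and Myl6, and with the gene Gm9844 for Tmsb10. Actb shares 14.2% and 18 of the 40 share none, among them Capg, Myo1f, Myo1g, Tmsb4x, Pfn1, Coro1a and Wdr1. Exons of Arpc1b, Cfl1 and Arpc4 overlap those of Pdap1, Snx32 and Ttll3 over 18.2%, 16.5% and 12.2% of their bases, and without a stated strand setting reads from the pairs Arpc1b with Pdap1 and Cfl1 with Snx32 cannot be told apart.

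Other genes of the pathway were taken from a list of 100, of which 93 were tested. In WT, 20 of the 93 were called between populations, 16 higher and 4 lower in PD1+Tim3+, beside 17.0% of all genes, 8.25% higher and 8.76% lower. In dKO 17 were called, 13 higher and 4 lower, beside 9.93%, 5.21% higher and 4.72% lower. Between genotypes and in the interaction none of the 93 was called, with 7, 9 and 9 at an unadjusted p under 0.05, beside 8.28%, 12.0% and 10.1% of all genes. Leaving out 1 library at a time moved the number of the 93 called between populations in both genotypes. In WT it was lowest without replicate 2 of WT PD1+Tim3+, and in dKO without replicate 1 of dKO PD1+Tim3-. Calls over all genes also fell under each of those omissions. Median fold changes of the 93 were 0.12 in WT and 0.13 in dKO.

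Vim, which encodes the intermediate filament protein vimentin and no part of actin, rose most in both genotypes. It stood at 127 ± 8.82 CPM (SD, n = 2) in WT PD1+Tim3- and 403 ± 24.6 CPM in WT PD1+Tim3+ (1.67 ± 0.13, adjusted p = 3.6e-05), and at 170 ± 7.08 against 560 ± 57.3 CPM in dKO (1.72 ± 0.13, adjusted p = 2.62e-05). Cyfip1, a subunit of the complex that activates Arp2/3 at the leading edge, rose in WT by 1.00 ± 0.22. Rhoc, a small GTPase, and Zyx, a focal adhesion protein, rose there by 0.99 ± 0.29 and 0.69 ± 0.12. Cyfip1 (1.135 ± 0.275, adjusted p = 0.0286) and Zyx (0.50 ± 0.12, adjusted p = 0.0264) were also called higher in dKO. In dKO the other genes with the largest increases were Myo1e (1.48 ± 0.27), a class I myosin, Swap70 (1.39 ± 0.31), an exchange factor for Rac, and Rhoc (1.20 ± 0.32). Myo1e, Swap70 and Rhoc averaged at most 13.9 CPM in any group, and the interaction passed for none of them (adjusted p = 0.277, 0.483 and 0.908).

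The same 4 genes of the list were lower in PD1+Tim3+ in both genotypes. Actn1, an actin cross-linker, stood at 66.5 ± 5.53 CPM against 26.3 ± 1.48 CPM in WT (-1.35 ± 0.16, adjusted p = 0.000608) and at 61.1 ± 0.161 against 20.2 ± 6.30 CPM in dKO (-1.59 ± 0.18, adjusted p = 0.000429). Mkl2, which encodes a cofactor of serum response factor, had -1.11 ± 0.24 in WT and -1.03 ± 0.25 in dKO, with 560 ± 233 CPM in WT PD1+Tim3-, where the 2 libraries lay far apart. Vav3, an exchange factor, had -0.75 ± 0.11 and -0.69 ± 0.12. Ssh2, a phosphatase that activates cofilin, had -0.72 ± 0.12 and -0.67 ± 0.13. Actn1 and Vim were called under each of 18 alternative settings in both genotypes. Rhoc was called under 10 of the 18 in WT, where its log2 fold change ranged from 0.47 to 1.56, and under 9 in dKO, and Mkl2 under 14 and 11.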

How the data were processed

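The data are bulk RNA-seq of 8 libraries, 2 for each of 4 groups taken from the labels. The deposited table holds the authors' whole-number counts per gene symbol. Per the submitters' processing notes the build was mm10, and cutadapt 1.18 and Bowtie2 2.2.5 were used, without their role. Not given in the sources used here: the counting tool, the annotation and the strand setting. A last line without a gene name, equal to the column totals, was left out. Columns that carry PD1 in their name without Tim3 were taken as PD1+Tim3-, since other columns carry Tim3.

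Counts were tested with edgeR 4.0.16 in R 4.3.3: TMM factors, the default low-count filter over 4 groups, and the quasi-likelihood F test in 1 fit of 4 group means over all 8 libraries, with 4 residual degrees of freedom. P-values were adjusted by Benjamini-Hochberg over all 13073 genes and called under 0.05. All adjusted p-values come from this test unless another is named. The standard error is the coefficient without a prior count over the square root of F. The code was tested on simulated data. Total counts of 1944999 to 13418762 limit the precision of genes at a few CPM.

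Transcript lengths are those of the longest GENCODE M21 transcript that is paired with RefSeq, on GRCm38. Overlap of exons was counted over all exons that GENCODE M21 annotates to a gene, in any of its transcripts. For the length correction, the log2 counts per library size (prior count of 2) of each library minus the gene mean was smoothed over log length by loess with a span of 0.3 and entered as an offset. The 40 genes, the other pathway genes and the markers were chosen with earlier results of these data known. Library values and tests are given for genes called in a contrast, at most 10, and where fewer than 4 were called, for the 4 with the smallest unadjusted p; of the other pathway genes, at most 4 higher and 4 lower by size. The other cells checked were B16 melanoma cells, myeloid cells of 3 kinds, lymphocytes other than CD8 T cells, fibroblasts with endothelium, and red cells. The search for shared 50-base stretches was added after the data had been seen. Alternatives were RLE factors, library totals, no filter, DESeq2 1.42.0, limma-voom (limma 3.58.1), robust estimation, length offsets, replicate blocks, the 4 libraries compared alone, and each library left out. The p-values measure the spread between these libraries.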

Additional observations from a re-analysis of the deposited data

How the results depend on the processing

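No called gene of the 40 changed sign under the alternatives. The WT population contrast had 8 calls as reported, beside 2223 of 13073 genes. Library totals gave 16, beside 2741, limma-voom 16, beside 2373, and robust estimation 14, beside 1920. Without the low-count filter there were 13, beside 2690 of 23672 genes. RLE factors and DESeq2 gave 6 each, beside 2198 and 1314, and lost Cap1 and Myo1g. The dKO population contrast had 4, beside 1298 of 13073 genes. Library totals gave 2, beside 1233, limma-voom 10, beside 1121, and robust estimation 8, beside 1076. Without the filter there were 8, beside 1764 of 23672 genes, and with only the 4 libraries compared 2, beside 971. Without the filter, 1 gene of the 40 (Capg) was called between genotypes in PD1+Tim3-. Calls over all genes there were 232 of 23672, against 6 of 13073 as reported. In PD1+Tim3+ there were 2 of the 40 (Capg and Tmsb10), and 486 over all genes, against 82 as reported. In the interaction, 2 of the 40 were called without the filter (Tmsb10 and Tmsb4x). That setting raised the number of calls over all genes in both genotype contrasts, so these calls are not particular to the 40. Leaving out 1 library at a time gave 2 to 15 calls in WT, 1 to 5 in dKO, 0 to 1 between genotypes in PD1+Tim3+, 0 to 1 in the interaction and 0 between genotypes in PD1+Tim3-; where a group then held 1 library, it is assumed to vary like the others. Library totals moved the median of all genes from 0.01 to 0.17 in WT and from 0.00 to -0.15 in the interaction.

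Deviations from the group means of same-numbered libraries correlated at -0.23 to 0.04 over the tested genes. With 2 libraries a group, this cannot show whether libraries of the same number came from the same mouse, so pairing is unknown and the main fit leaves it out. With the number as a replicate block, calls were 5 in WT, beside 1672 of all genes, and 2 in dKO, beside 716. With the numbers read as mice within each genotype, they were 4, beside 1529, and 2, beside 1010. The genotype contrasts cannot be fitted with mice as a block. No call between genotypes or in the interaction was gained by the block. The interaction has no fit with 4 libraries.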

Other observations

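Markers of other cells that the sort could hold were measured beside the actin genes. Genes of B16 melanoma cells (7 of 7 in the table) summed to 18.0 to 22.1 CPM in every library, most of it Tyr, while Mlana was at most 0.523 CPM. Neutrophil genes summed to 2.03 to 4.82 CPM and B cell genes to 0.427 to 1.80 CPM. Fibroblast, smooth muscle and endothelial genes summed to 23.4 to 37.8 CPM. Most of it was Pecam1, at 20.8 to 36.4 CPM, while Tagln was at most 2.23 CPM and Col1a1 at most 0.85 CPM. NK cell genes summed to 64.8 to 82.6 CPM in the WT libraries and 39.2 to 46.2 CPM in those labelled dKO, with Eomes, which T cells also express, as the largest, at 55.4 to 62.2 CPM and 26.7 to 36.1 CPM. CD4 and regulatory T cell genes summed to 9.74 to 12.6 CPM in PD1+Tim3- and 19.3 to 26.5 CPM in PD1+Tim3+ libraries, where Cd4 itself was at most 0.523 CPM in any library. Erythroid genes reached 86.8 CPM in replicate 1 of the group labelled dKO PD1+Tim3+ and 1.65 CPM in the lowest library. The part of these cells in the results was not tested.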
